A study of Mus musculus with 4 samples.

Results

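Genes that guide T cells into lymph nodes and back out of them, or that control those guidance genes, were followed in CD8 T cells from mouse liver. They were the rows of the deposited table whose symbol is Ccr7, S1pr1, S1pr4, S1pr5, Klf2, Klf3, Foxo1, Satb1 or Dapl1, and all 9 were found among its 15367 gene symbols. The study compared 2 libraries labelled Prf KO, from perforin knockout mice, with 2 libraries labelled WT, from wild type mice. Both groups were adult C57BL/6 mice kept for 4 weeks on MCD, a methionine- and choline-deficient diet used to induce steatohepatitis, and hepatic CD8 T cells were sorted on a FACS Aria II. Both groups thus share the diet, and no group on another diet is analysed here. The labels give neither the mice's sex nor the part of the gene that the knockout allele removes, and they do not say from how many animals each library was made, so the spread between replicates, on which all p-values rest, may be technical.

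A circulating T cell enters a lymph node when the chemokine receptor CCR7 senses CCL19 and CCL21. It leaves when S1PR1, a G protein-coupled receptor, senses sphingosine 1-phosphate (S1P), a lipid that is abundant in blood and lymph and scarce inside tissue. The transcription factor FOXO1 keeps Ccr7 and Klf2 expressed in resting T cells, and KLF2 in turn activates S1pr1. Antigen and cytokine signals lower this programme, and cells that settle in tissue lose much of it.

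The knockout label could not be checked from Prf1, the gene of the pore-forming protein perforin. Prf1 had 95.4 and 98.7 FPKM in Prf KO replicates 1 and 2, against 125 and 113 FPKM in WT replicates 1 and 2. A value for the whole gene cannot show a short deletion, so the group names rest on the labels. FPKM, the level per transcript length and library total, is the reading given here to values whose unit is not named in the table. CD8 T cell RNA was present in each library: Cd8a, a chain of the CD8 coreceptor, had 289 and 272 FPKM in the Prf KO libraries, against 283 and 289 FPKM in the WT libraries. The library labelled Prf KO replicate 1 stood apart, with Pearson correlations of 0.914 to 0.924 with the others across 9805 tested genes, against 0.961 to 0.969 among the other 3. Genes are not independent replicates, so these are descriptions. Results are therefore also given without that library.

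The upstream sequences of S1pr5 and Dapl1, the genes of the 9 with the largest difference upward and downward, are shown first, because FOXO and KLF factors are themselves among the 9 genes. Each runs over the 250 bases before the gene's start, 5′ to 3′ on the gene's strand, from RefSeq's table for build GRCm38.p6. Capitals mark a FOXO core motif (GTAAACA or its reverse complement) or a CACCC box, the KLF element (CACCC or its reverse complement).
S1pr5, chr9:21248444-21248693, minus strand: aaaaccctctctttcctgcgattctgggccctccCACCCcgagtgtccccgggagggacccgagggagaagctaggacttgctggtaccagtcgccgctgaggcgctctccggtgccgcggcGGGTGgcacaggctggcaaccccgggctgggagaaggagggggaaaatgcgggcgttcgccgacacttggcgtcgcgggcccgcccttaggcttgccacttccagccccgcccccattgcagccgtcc
Dapl1, chr2:59484403-59484652, plus strand: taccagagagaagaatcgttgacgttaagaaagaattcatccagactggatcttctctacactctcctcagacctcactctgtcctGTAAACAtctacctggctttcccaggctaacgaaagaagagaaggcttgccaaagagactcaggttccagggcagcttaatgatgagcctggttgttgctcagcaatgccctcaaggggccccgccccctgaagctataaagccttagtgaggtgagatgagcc
The S1pr5 window held 2 CACCC boxes, which began 216 and 128 bases before the start, and no FOXO core. The Dapl1 window held 1 FOXO core, which began 164 bases before the start, and no CACCC box. Of 32851 windows of the same length in the table, 3.17% held a FOXO core and 52.0% a CACCC box, so the second is found in about every other window. The table had entries for 7 of the 9 genes, and Dapl1 was the one whose window held a FOXO core. CACCC boxes were also found in the windows of Klf2, Klf3 and S1pr4 and in 4 of the 5 windows of Satb1, and none in that of Foxo1. These matches describe letters, not binding.

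Ccr7 and Klf2 held the first 2 places of the 9 genes in all 4 libraries, each at 702 FPKM or more, followed by S1pr1 and S1pr4 at 184 to 288 FPKM. Klf3, Dapl1 and Satb1 took places 5 to 7 in an order that differed between libraries, and Foxo1 and S1pr5 were last in each. The span of the mean level reached from 1217 FPKM for Ccr7 to 10.6 FPKM for S1pr5 in the Prf KO libraries, and from 1578 to 5.61 FPKM in the WT libraries. All 9 passed the filter of a mean of at least 1 FPKM over the 4 libraries.

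**Figure D1:**
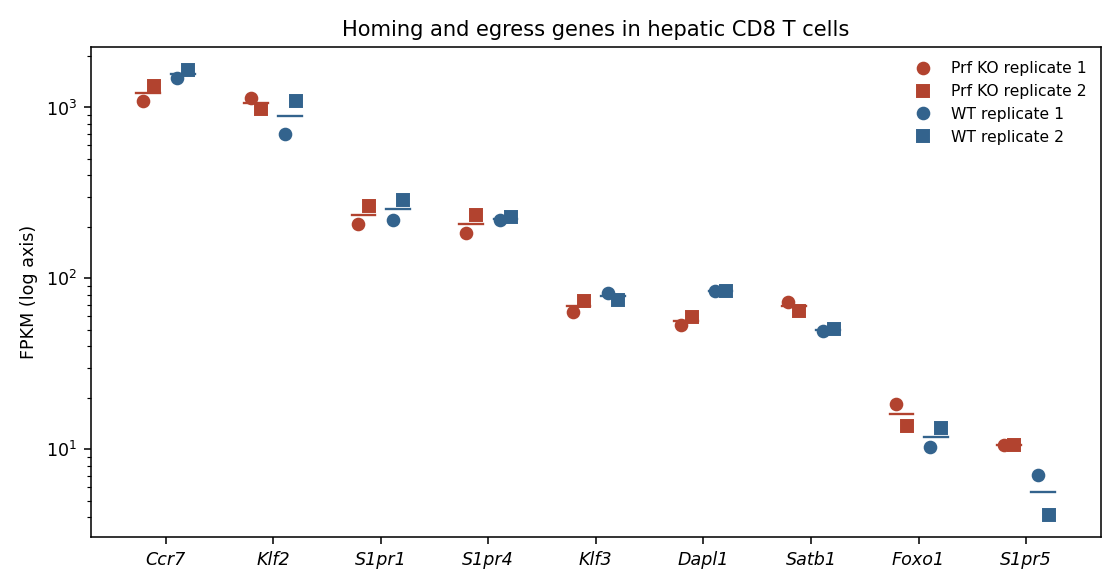
Levels of the 9 genes in FPKM on a log axis, ordered by their mean; red marks the 2 Prf KO libraries, blue the 2 WT libraries, and a short line is the group mean. Ccr7 and Klf2 lie highest and S1pr5 lowest, and the 2 groups are apart for Dapl1 and Satb1 by more than the distance between replicates of either group.

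None of the 9 genes differed between the groups by limma's moderated test at an adjusted p under 0.05, which was passed by 0% of the 9805 tested genes. At an unadjusted limma p under 0.05 there were 2 of the 9, S1pr5 and Dapl1, against 4.79% of all tested genes. In limma fits of all 4 libraries, Dapl1 was above that p with the replicate block (0.0584) and without the intensity trend (0.0834). Dapl1 was also above it when scaled to the summed CD8 T cell markers (0.089), and S1pr5 without the filter on low values (0.0674). Satb1 was below it without that filter (0.0345), and with upper-quartile (0.0465), quantile (0.0421) or CD8 T cell marker scaling (0.0346). Fits with a library left out leave a lone library in a group, so their p-values are not given. The 2 groups did not overlap for 6 of the 9, against 35.9% of all tested genes. Higher in both Prf KO libraries were 3 (S1pr5, Satb1 and Foxo1), against 13.9% of all, and lower in both were 3 (Ccr7, Klf3 and Dapl1), against 21.9% of all. The median log2 difference of the 9 was -0.10, close to the -0.08 of all tested genes. All log2 differences are Prf KO minus WT on the log2(FPKM + 1) scale, which understates differences of low genes. With 2 against 2 libraries the smallest two-sided p of an exact permutation test is 0.333, so no single gene can pass such a test.

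**Figure D2:**
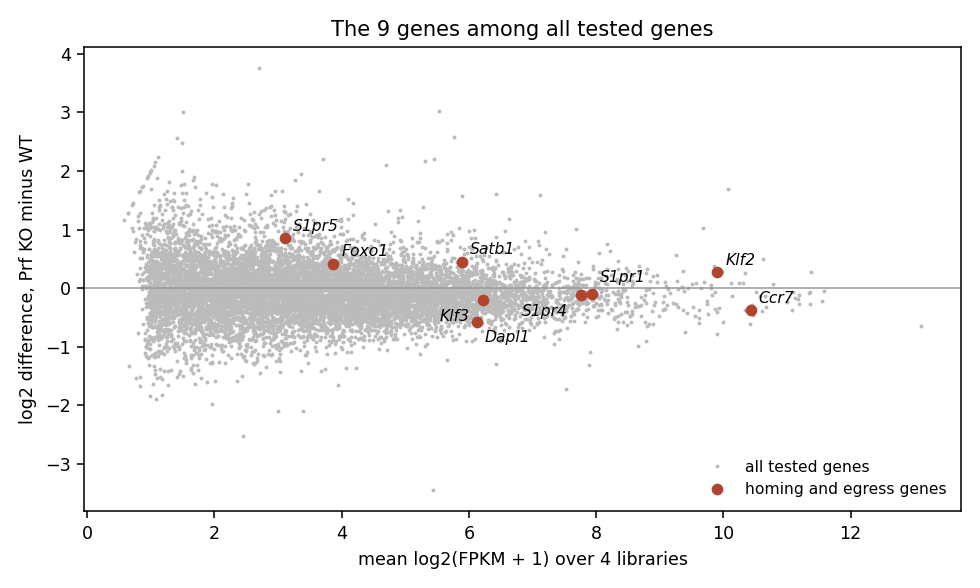
Log2 difference (Prf KO minus WT) against the mean log2(FPKM + 1) over 4 libraries, for all 9805 tested genes in grey and the 9 homing and egress genes in red. The 9 genes lie within the grey cloud on both sides of 0, from -0.58 for Dapl1 to 0.85 for S1pr5.

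Among the receptors, the entry receptor gene Ccr7 was lower in both Prf KO libraries. It had 1096 and 1338 FPKM in Prf KO replicates 1 and 2, against 1491 and 1666 FPKM in WT replicates 1 and 2. The groups did not overlap, but the gap between them, from 1338 to 1491, was smaller than the distance between replicates of either group. This gave a log2 difference of -0.38 (SE 0.29, 95% interval -1.03 to 0.27, limma adjusted p = 0.866). Without Prf KO replicate 1 it was -0.24. By rank, Ccr7 was at place 29 and 26 of the tested genes in the Prf KO libraries and at place 23 and 22 in the WT libraries.

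The egress receptor gene S1pr1 showed no separation of the groups. It had 208 and 264 FPKM in Prf KO replicates 1 and 2, against 221 and 288 FPKM in WT replicates 1 and 2. The lower value of each group was in its replicate 1, and the distance between replicates was larger than that between group means. On the log2 scale S1pr1 differed by -0.10 (SE 0.27, 95% interval -0.72 to 0.51, limma adjusted p = 0.954), and it was 0.07 without Prf KO replicate 1 and 0.09 without WT replicate 2, so it has no stable direction.

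S1pr4, an S1P receptor gene expressed mainly in blood and lymphoid cells, was at a similar level. It had 184 and 234 FPKM in the Prf KO libraries, against 219 and 228 FPKM in the WT libraries. The WT values lay between those of the Prf KO libraries. Its log2 difference was -0.11 (SE 0.25, 95% interval -0.68 to 0.47, limma adjusted p = 0.95), and 0.07 without Prf KO replicate 1.

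S1pr5, an S1P receptor gene known from natural killer cells and circulating effector T cells, had the largest difference of the 9. It had 10.6 FPKM in both Prf KO libraries, against 7.10 and 4.11 FPKM in WT replicates 1 and 2. Both Prf KO values lay above both WT values, and the ratio of means was 1.89. The log2 difference was 0.85 (SE 0.35, 95% interval 0.06 to 1.64), with an unadjusted limma p of 0.0379 and an adjusted p of 0.866. Leaving out each library in turn gave 0.52 to 1.18, with the lowest value without WT replicate 2. S1pr5 is also the least abundant of the 9, at place 4613 and 4803 of the tested genes in the Prf KO libraries and 5921 and 7150 in the WT libraries. The annotation GENCODE M21 places Gm48303 on the opposite strand over S1pr5, and the library kit does not mark strand, so its reads cannot be told apart.

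**Figure D3:**
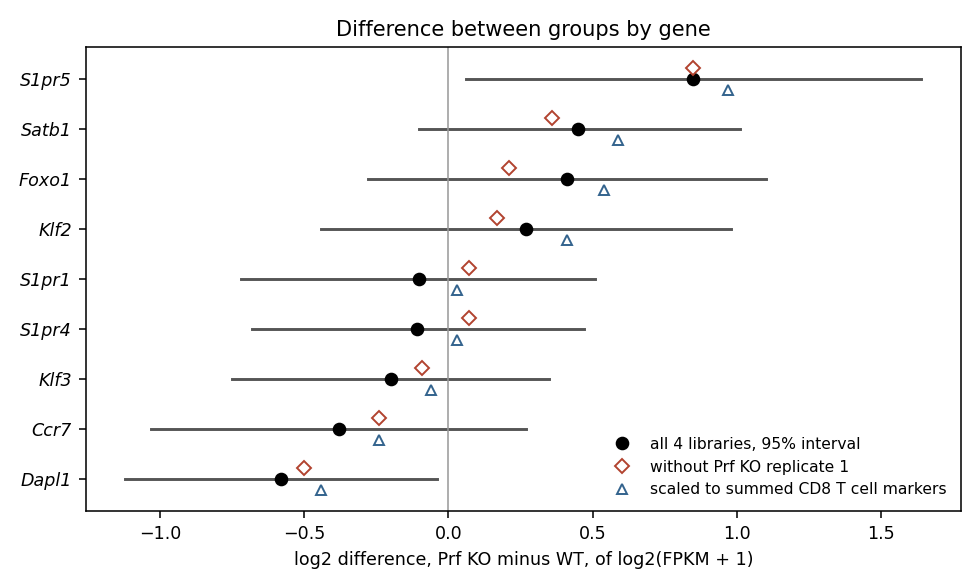
Log2 difference (Prf KO minus WT) of each gene with its 95% interval from limma; diamonds leave out Prf KO replicate 1 and triangles scale each library to its summed CD8 T cell markers. The intervals of S1pr5 and Dapl1 do not reach 0 before adjustment, and S1pr1 and S1pr4 cross to the other side of 0 under both alternatives.

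Among the regulators, Klf2 varied widely between the WT replicates. It had 1131 and 981 FPKM in Prf KO replicates 1 and 2, against 702 and 1088 FPKM in WT replicates 1 and 2. WT replicate 1 was the low library, and WT replicate 2 lay between the Prf KO values. Klf2 had a log2 difference of 0.27 (SE 0.31, 95% interval -0.44 to 0.98, limma adjusted p = 0.893), and -0.05 without WT replicate 1. Over all libraries S1pr1, which KLF2 activates, was not ordered like Klf2: Prf KO replicate 1 had the most Klf2 and the least S1pr1. Without that library both genes were highest in WT replicate 2, then Prf KO replicate 2, then WT replicate 1. The link between the genes was not tested.

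Foxo1 had 18.4 and 13.7 FPKM in Prf KO replicates 1 and 2, against 10.3 and 13.3 FPKM in WT replicates 1 and 2. The groups did not overlap, though Prf KO replicate 2 and WT replicate 2 nearly met. For Foxo1 the log2 difference was 0.41 (SE 0.30, 95% interval -0.28 to 1.10, limma adjusted p = 0.866), and it was 0.21 without Prf KO replicate 1. Its locus carries 1 annotated gene on the opposite strand and 1 on the same strand.

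Klf3, a transcriptional repressor of the KLF family, had 63.4 and 73.8 FPKM in the Prf KO libraries, against 82.4 and 75.1 FPKM in the WT libraries. Replicate 2 of each group differed little from the other group's. This corresponds to a log2 difference of -0.20 (SE 0.24, 95% interval -0.75 to 0.35, limma adjusted p = 0.9), and -0.09 without Prf KO replicate 1. It also overlaps 1 annotated gene on the opposite strand and 1 on the same strand.

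Satb1, a chromatin organiser needed for T cell development, and Dapl1, a gene used as a marker of naive T cells, stood out for their close replicates. Satb1 had 73.1 and 64.5 FPKM in Prf KO replicates 1 and 2, against 48.8 and 50.8 FPKM in WT replicates 1 and 2. Both Prf KO values were above both WT values, with a ratio of means of 1.38. The log2 difference was 0.45 (SE 0.24, 95% interval -0.10 to 1.01, limma adjusted p = 0.866), and 0.36 to 0.54 with each library left out in turn. Satb1 overlaps 1 annotated gene on the opposite strand and 5 on its own.

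Dapl1 differed in the other direction. It had 53.2 and 59.2 FPKM in Prf KO replicates 1 and 2, against 84.0 and 84.8 FPKM in WT replicates 1 and 2. Both Prf KO values were below both WT values, and the ratio of means was 0.666. The log2 difference was -0.58 (SE 0.24, 95% interval -1.12 to -0.04), with an unadjusted limma p of 0.0392 and an adjusted p of 0.866. With each library left out in turn it was -0.66 to -0.50. No annotated gene overlaps Dapl1. Dapl1 and Satb1 thus lay on opposite sides of 0, and neither passed adjustment.

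Scaling between libraries moved these values. Of 9 markers of CD8 T cells, 3 (Cd3d, Cd3g and Cd247) were lower in both Prf KO libraries, against 21.9% of all tested genes. Higher in both were 0, against 13.9%. Together the 9 markers summed to 2376 and 2419 FPKM in the Prf KO libraries, against 2574 and 2711 FPKM in the WT libraries. After each library was scaled to that sum, an alternative chosen after the sums had been seen, the log2 difference was 0.97 for S1pr5, 0.59 for Satb1, -0.44 for Dapl1, -0.24 for Ccr7 and -0.06 for Klf3, which had -0.12 with upper-quartile scaling. S1pr1 and S1pr4 both became 0.03. The median of all tested genes became 0.04. Groups that did not overlap were then higher for 4 and lower for 2 of the 9, against 21.6% and 12.7% of all tested genes. With upper-quartile scaling they were 3 and 3, against 17.4% and 18.6%. In bulk RNA, fewer cells of a type and less RNA per cell cannot be told apart.

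Markers of other cells were detected in each library. Each value in this paragraph is a summed FPKM. Liver endothelial markers, of interest because endothelium expresses S1pr1 and Klf2, summed to 499 and 180 in Prf KO replicates 1 and 2, against 275 and 138 in WT replicates 1 and 2, and 15 of 15 were higher in replicate 1 of both groups. S1pr1 was lower in those same libraries. It was among 4 of the 9 genes lower in replicate 1 of both groups, with Ccr7, S1pr4 and Dapl1, and 0 were higher there. Klf2 was highest in Prf KO replicate 1, which had the highest endothelial sum, and lowest in WT replicate 1, which had the second highest. The 10 B cell markers summed to 29.2 and 72.8 in the Prf KO libraries, against 54.6 and 60.2 in the WT libraries. The part of these cells in the 9 genes' differences was not tested.

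Natural killer cell markers bear on S1pr5. The 10 markers summed to 80.9 and 85.0 in the Prf KO libraries, against 118 and 79.6 in the WT libraries. Of them, 1 was higher in both Prf KO libraries, against 13.9% of all tested genes. This was Eomes, a transcription factor gene that CD8 T cells also express, with 14.1 and 11.8 FPKM in the Prf KO libraries, against 9.07 and 9.57 FPKM in the WT libraries. The receptor gene Klre1 had 29.6 and 19.4 FPKM, against 57.2 and 20.0 FPKM, and Fcer1g 22.9 and 31.3 FPKM, against 35.3 and 30.2 FPKM. Ncr1, which defines these cells, had 0.753 and 0 FPKM in the Prf KO libraries, against 0 in both WT libraries. Klra8 and Klra4 were at or under 0.01 FPKM in all 4 libraries. The rest of the list was detected in every library. Klra7 had 8.65 and 12.2 FPKM in the Prf KO libraries, against 9.075 and 11.7 FPKM in the WT libraries. Tyrobp, Klrb1c and Klri2 ranged from 0.946 to 5.94 FPKM. The part of natural killer cells in the S1pr5 difference was not tested.

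Of the remaining lists, neutrophil markers were lower in both Prf KO libraries for 8 of 11, against 21.9% of all tested genes. Their sums were 110 and 147 in the Prf KO libraries, against 235 and 250 in the WT libraries. The 10 dendritic cell markers, of interest because migrating dendritic cells carry CCR7, summed to 29.7 and 42.8 in the Prf KO libraries, against 56.1 and 25.7 in the WT libraries. Macrophage and Kupffer cell markers without Lyz2 summed to 166 and 61.8, against 69.2 and 45.2, and Lyz2 alone had 1508 and 2391 FPKM, against 2387 and 2510 FPKM. Hepatocyte markers summed to 25.3 and 1.01, against 0 and 4.70. Markers of CD4 and regulatory T cells summed to 45.1 and 70.7, against 68.7 and 95.1, and Cd4 itself was under 2 FPKM in every library. The part of these cells in the values of Ccr7, S1pr4 or the other 7 genes was not tested.

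**Figure D4:**
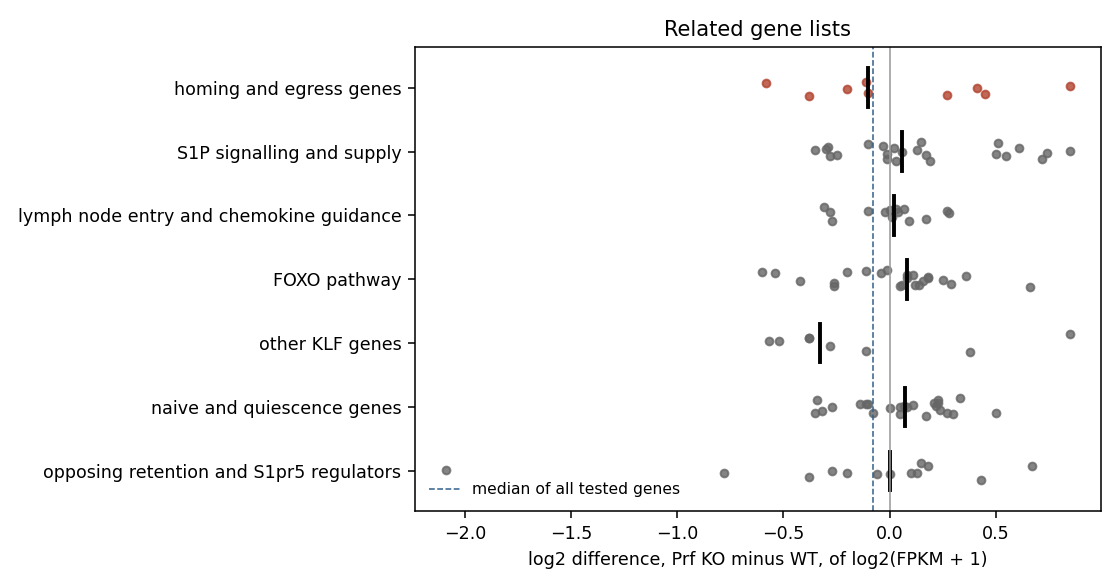
Log2 difference (Prf KO minus WT) of the 9 homing and egress genes in red and of the tested genes in 6 related lists in grey; a thick line is a list's median, the dashed line the median of all tested genes, -0.08. List medians run from -0.33 for other KLF genes to 0.08, and Itgae lies farthest out at -2.09.

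Other genes of the same pathways were read from 6 lists, in which 0 genes passed limma's threshold in either direction. Of their 105 tested genes, 3 had an unadjusted limma p under 0.05, against 4.79% of all tested genes. Beside the list counts that follow, 13.9% of all tested genes were higher and 21.9% lower in both Prf KO libraries. After upper-quartile scaling these shares were 17.4% and 18.6%. The S1P signalling list had 23 tested genes, 3 higher and 3 lower in both Prf KO libraries, with a median log2 difference of 0.06. Sgpp1, a phosphatase of S1P, had 42.5 and 43.5 FPKM in the Prf KO libraries, against 19.3 and 34.4 FPKM in the WT libraries (log2 difference 0.72, SE 0.31, limma adjusted p = 0.866), and its log2 difference was 0.32 without WT replicate 1. Gna13, a G protein subunit that couples to other S1P receptors, had a log2 difference of 0.50, or 0.33 without Prf KO replicate 1. Gnai2, the subunit that couples S1PR1, had 185 and 44.2 FPKM, against 61.7 and 40.4 FPKM, so its log2 difference of 0.85 rested on Prf KO replicate 1 and was -0.17 without it. The S1P receptor gene S1pr3 was listed at 0 in all 4 libraries.

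In the lymph node entry list, with 14 tested genes, 1 was higher and 1 lower in both Prf KO libraries, or 4 and 1 after upper-quartile scaling, and the median was 0.02. Selplg, the selectin ligand PSGL-1, had a log2 difference of -0.28, the integrin gene Itga4 -0.31 and the small GTPase gene Rap1b -0.27. Without Prf KO replicate 1 these were -0.17, -0.20 and -0.04.

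The FOXO pathway list had 23 tested genes, 2 higher and 3 lower in both Prf KO libraries, or 8 and 3 after upper-quartile scaling, with a median of 0.08. The deacetylase gene Sirt1 had a log2 difference of -0.60 and the kinase gene Mtor -0.54, both below 6 FPKM in every library. The kinase gene Akt1, whose product inactivates FOXO1, had 54.2 and 19.5 FPKM, against 25.6 and 16.03 FPKM, and its log2 difference of 0.66 was -0.05 without Prf KO replicate 1. Of 8 tested other KLF genes, 0 were higher and 1 was lower in both, with a median of -0.33 that was -0.04 without Prf KO replicate 1. Klf9 and Klf10 had log2 differences of -0.52 and -0.57 and Klf13 0.85, and without that library Klf9 had -0.24, Klf10 0 and Klf13 -0.09.

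Of 24 naive and quiescence genes, 5 were higher and 3 lower in both Prf KO libraries, with a median of 0.08. The cytokine receptor genes Il6st and Il6ra had log2 differences of 0.50 and -0.35, and Als2cl -0.34. Without Prf KO replicate 1, Il6st had 0.08 and Il6ra -0.21. Among 13 tested genes of a mixed list tied to tissue retention, S1pr5 or effector cells, 3 were higher and 1 lower in both, with a median of 0. Itgae, the CD103 integrin chain of resident T cells, had 3.51 and 4.80 FPKM in the Prf KO libraries, against 12.1 and 35.3 FPKM in the WT libraries (log2 difference -2.09, SE 0.47, limma adjusted p = 0.866). Without WT replicate 2 the log2 difference of Itgae was -1.35. Runx3, a CD8 lineage factor, had a log2 difference of 0.67, or 0.39 without Prf KO replicate 1. Cd69, whose product pulls S1PR1 off the cell surface, had 437 and 1203 FPKM in the Prf KO libraries, against 997 and 1565 FPKM in the WT libraries, a log2 difference of -0.78 that was -0.05 without Prf KO replicate 1.

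The genes with the most similar profile over the 4 libraries were found by the Euclidean distance between mean-centred log2(FPKM + 1) values. Nearest to Ccr7 were Psmb10 (distance 0.0172), Sep15 (0.0191) and Csnk1a1 (0.0206). Nearest to S1pr1 were Skp1a (0.028), Prr14 (0.0342) and Hdac4 (0.0416). Nearest to Klf2 were Oxct1 (0.0644), Aqr (0.0692) and Daglb (0.0746), and to S1pr5 Arid3a (0.129), Zfp933 (0.156) and Folr4 (0.207). With 4 libraries and 9805 genes, close matches are easily found, and these names describe likeness only.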

How the data were processed

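RNA of sorted hepatic CD8 T cells was made into libraries with an Illumina TruSeq RNA kit, per the labels' protocols. Bowtie 0.12.2 and genome build mm8 appear, per the submitters' processing notes, without a stated role. How expression was quantified is likewise not given in the sources used here. Values deposited by the authors were read as FPKM, because they were not whole, had no common column total, and fell with transcript length (Spearman rho -0.27 over 276 single-transcript genes above 0 in 1 library). Of 61468 values, 290 lay above 0 and under 1e-06, so some low values are not whole reads. Numbers of reads were not recovered, and no interval of counting error is given. Columns summed to 334493 and 383498 in Prf KO libraries, against 378364 and 392785 in WT libraries.

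Values were tested as log2(FPKM + 1), unscaled, in R 4.3.3 with limma 3.58.1 (moderated test with intensity trend, two-sided, Benjamini-Hochberg over all 9805 genes with a mean of at least 1, threshold 0.05). The procedure was run on simulated data with normal noise of the fit's own spread and no library set apart. That cannot show how it behaves on these libraries. Named were the 9 genes, Prf1, up to 3 genes of each related list with the smallest p, and the 3 nearest profiles of 4 genes, leaving out predicted models, pseudogenes and receptor segments. Some genes of the lists are not reported here. Genes chosen otherwise are said to be so or illustrate a marker list. The 9 genes and all lists were chosen with earlier results of these data known. The expression table has no coordinates. Alternatives were the replicate block, each library left out (the remaining lone library is then taken to vary as the other groups do), filters, scaling, pseudocounts, moderation and sample weights. Figures used matplotlib 3.10.9.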

Additional observations from a re-analysis of the deposited data

How the results depend on the processing

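S1pr5, Satb1, Foxo1, Ccr7, Klf3 and Dapl1 kept the direction of their log2 difference under every alternative run. In the fits of all 4 libraries, 0 of the 9 genes passed limma's threshold. S1pr1 ranged from -0.30 to 0.09 and S1pr4 from -0.28 to 0.07 with 1 library left out, and both were 0.03 when scaled to CD8 T cell markers. S1pr4 was 0.00, on the other side of 0, with quantile normalization. Klf2 ranged from -0.05 to 0.59. The cause was not tested. The median of the 9 ranged from -0.28 to 0.09. Members lower in every Prf KO library kept ranged from 2 (scaled to CD8 T cell markers) to 5 (without Prf KO replicate 2). Members higher in every Prf KO library kept ranged from 3 to 4. Without Prf KO replicate 2, 48.9% of all tested genes were lower and 30.1% higher, against 21.9% and 13.9% in the main fit. With CD8 T cell marker scaling 12.7% were lower and 21.6% higher. Counts with a library left out are thus not comparable with those of all 4 libraries. Over the whole table, 0 genes were called in every fit of all 4 libraries. Fits with a library left out leave a lone library in a group, so their calls are not given. With the replicate block limma called 0 genes, 542 had an unadjusted p under 0.05, among them 1 of the 9 (S1pr5), and the median of the 9 was -0.10. Over the limma fits of all 4 libraries, 1 to 3 of the 9 had an unadjusted p under 0.05. Same-numbered libraries deviated together with a correlation of 0.068 over genes, though 15 of 15 liver endothelial markers were higher in replicate 1 of both groups. That correlation cannot show whether same-numbered libraries were paired. The labels state no pairing, and none was assumed in the main fit. With 2 libraries a group, the 95% intervals of 7 of the 9 genes include 0 before adjustment. The 9 intervals are 1.09 to 1.58 wide on the log2 scale. Those of Ccr7 (-1.03 to 0.27), Foxo1 (-0.28 to 1.10) and Satb1 (-0.10 to 1.01) include both 0 and a 2-fold difference, even before adjustment. At the adjusted threshold larger differences also went uncalled, such as that of Itgae (log2 difference -2.09, limma adjusted p = 0.866).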

Other observations

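None of the 9 homing and egress genes lay more than 2-fold from all 3 other libraries, on FPKM + 1, in any library. Among 105 tested genes of the related lists, 7 did so in Prf KO replicate 1 (Akt1, Cd69, Fut7, Gnai2, Klf10, Klf13 and Sesn3), 0 in Prf KO replicate 2, 0 in WT replicate 1 and 1 in WT replicate 2 (Itgae). Over all 9805 tested genes the counts were 549 and 41 in the Prf KO libraries, against 89 and 78 in the WT libraries, or 5.60% and 0.418%, against 0.908% and 0.796%. The 7 genes were chosen by this count after the values were seen.

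The value of a single read, estimated from the most frequent ratio of low values shared by 2 libraries, was 1.31 times as large in Prf KO replicate 1 as in Prf KO replicate 2, and 1.24 and 1.25 times as large as in WT replicates 1 and 2. WT replicates 1 and 2 differed by 1.01 times. These ratios rest on 9 to 23 genes each of 512 to 558 compared, or 24 of 655 for the WT pair. A smaller library gives a larger value per read, but numbers of reads were not recovered and library size was not tested. Genes above 0 numbered 12495 and 12010 in Prf KO replicates 1 and 2, against 12109 and 12161 in WT replicates 1 and 2.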
